A study of Mus musculus with 2 samples.

Results

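The genes Arg1, Arg2 and Nos2 encode the 2 arginases and the inducible nitric oxide synthase, enzymes that draw on the same amino acid, arginine. They are 3 of 17775 genes in the deposited matrix and were taken by symbol, whatever their values. The cells came from tumours of MC38, a mouse colon carcinoma line grown in the back of C57BL/6 mice. From day 7 after implantation the DFMO group was given DFMO by gavage for 14 days, and the water group was given water over the same days; the sources differ on how often per day. Cells of 4 mice per group were pooled after a Ficoll step meant to enrich immune cells and were sequenced as 1 single-cell library from the 5' end of transcripts per group. DFMO inhibits ornithine decarboxylase, which acts on the ornithine that arginase releases.

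Arginase splits arginine into ornithine and urea. Arg1 encodes the cytosolic form, which liver cells use in the urea cycle and which macrophages can switch on, and Arg2 encodes the mitochondrial form. Nos2 is induced by microbial products and interferon gamma, and its enzyme turns arginine into citrulline and nitric oxide. Arg1 and Nos2 are often used as opposite marks of alternatively and classically activated mouse macrophages, and both have been described in myeloid cells of tumours.

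All values are UMIs, molecules counted through a random tag, or CPM, the usual scaling of a gene's UMIs by all UMIs of the cells summed. Intervals are 95% intervals of counting error only. With 1 library per group there is no replicate, so no difference was tested and none can be set against the spread between mice. After filtering, 4421 DFMO cells and 6150 water cells remained, with a median of 2208 UMIs in DFMO and 6334.5 in water. The libraries shared 37 cell barcodes. They differed in make-up: B cell-like cells were 33.7% of DFMO and 0.927% of water cells, and monocyte and macrophage-like cells were 4.25% of DFMO and 19.9% of water cells. Cells below 20 CPM of Ptprc, the pan-leukocyte gene, that met no marker rule are called Ptprc-low and made up 13.0% of DFMO and 32.5% of water cells. The labels call the cells immune, but Ptprc-low and fibroblast-like cells stood at 1.55 to 3.32 CPM of Ptprc in both libraries. Clusters were made with the 3 genes left out of the variable genes, so that their values did not decide where a cell was placed.

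Each gene had its own place among the cells. Of 3335 Arg1 UMIs in kept cells, 94.6% were in monocyte and macrophage-like cells. Of 108 Arg2 UMIs, 75% were in that class. Of 2004 Nos2 UMIs, 67.3% were in Ptprc-low cells, 22.7% in fibroblast-like cells and 6.69% in monocyte and macrophage-like cells. The gene most used as a mark of classical macrophages was thus counted mainly in cells with little or no Ptprc in both libraries. These shares also depend on the number and depth of the cells of a class. Nos2 stood at 44.2 CPM in DFMO and 28.2 in water in Ptprc-low cells (88.1 and 64.3 in their cluster 3). It stood at 61.8 and 32.5 in fibroblast-like cells. In the monocyte and macrophage-like class it stood at 33.9 and 17.4, and at 100.2 and 45.1 in cluster 10 of that class.

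**Figure D1:**
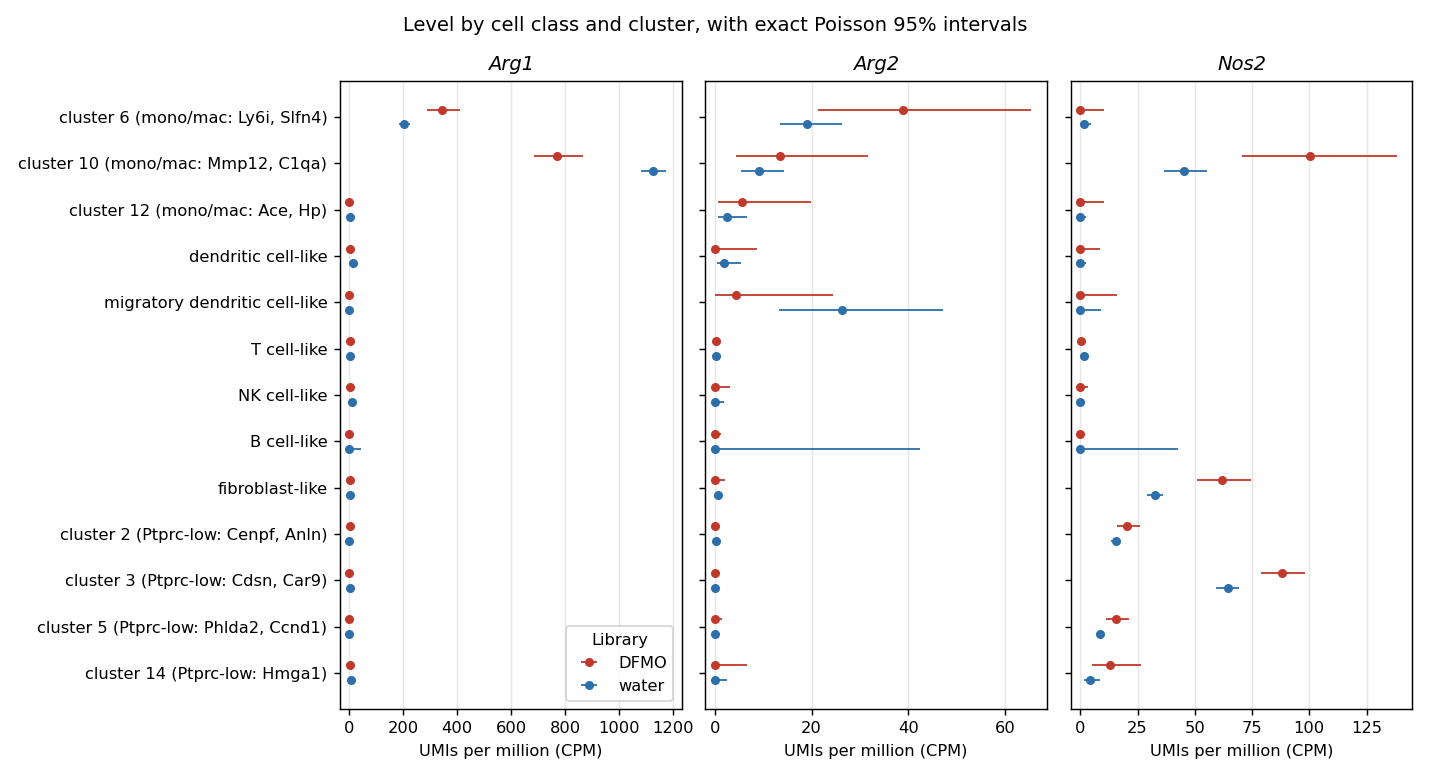
Level of each gene in CPM (horizontal axes, linear) by cell class or cluster, for DFMO (red, upper of each pair) and water (blue), with exact Poisson 95% intervals of counting error. Arg1 lies in clusters 6 and 10, Arg2 in clusters 6 and 10 and migratory dendritic cell-like cells, and Nos2 in cluster 10, fibroblast-like and Ptprc-low cells; the long blue bars of B cell-like cells come from 57 cells with 0 UMIs.

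Arg1 (ENSMUSG00000019987) lies on chromosome 10, 24915221 to 24927484 of mm10, on the minus strand. The monocyte and macrophage-like class held 3 clusters, and Arg1 separated them. Cluster 10, led by the macrophage elastase gene Mmp12, the chemokine gene Pf4, Ms4a7 and the complement genes C1qa and C1qc, held 79.0% of all Arg1 UMIs. There Arg1 stood at 772 CPM in 63 DFMO cells (685 to 867; 285 UMIs), against 1127 CPM in 383 water cells (1082 to 1174; 2348 UMIs). Cluster 6, led by Ly6i, Slfn4, Tarm1, Ccr1 and Tgfbi, held 15.6% of the UMIs. Its Arg1 level was 345 CPM in 62 DFMO cells (287 to 412; 124 UMIs), against 204 CPM in 518 water cells (185 to 226; 395 UMIs). Cluster 12, led by Serpinb2, Ace, Hp, Adgre4 and Gm9733, held 0 Arg1 UMIs in 63 DFMO cells and 2 in 320 water cells. The order of Arg1 was the same in both libraries: cluster 10 above cluster 6, and cluster 6 above cluster 12, with no overlap of intervals between neighbours.

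Within cluster 10 the Arg1 UMIs were unevenly spread over cells. A UMI was seen in 52.4% of DFMO and 41.8% of water cells, and the cells with one held a median of 7 in DFMO and 9 in water. The richest cell held 25 UMIs in DFMO and 94 in water. At least 10 UMIs were held by 19.0% of DFMO cells and 20.6% of water cells. The share of cells with any Arg1 was larger in DFMO, but the intervals overlapped (39.4 to 65.1% in DFMO, 36.8 to 46.9% in water). The longer upper tail in water came from 383 cells against 63 in DFMO. The maxima therefore cannot be compared directly. A finer clustering set apart subcluster 17, led by Mmp12, Clec4d, Arg1, Mmp13 and Pf4. This subcluster was 0.746% of kept DFMO cells (33) and 2.73% of kept water cells (168). Within the monocyte and macrophage-like class, subcluster 17 was instead the larger part in DFMO, with 33 of 188 cells against 168 of 1221 in water. Of cluster 10, subcluster 17 held 33 of 63 DFMO cells and 165 of 383 water cells. Its Arg1 level was 1119 CPM in DFMO (978 to 1274), against 2237 CPM in water (2142 to 2335), and 69.7% of its DFMO and 76.2% of its water cells had an Arg1 UMI.

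**Figure D2:**
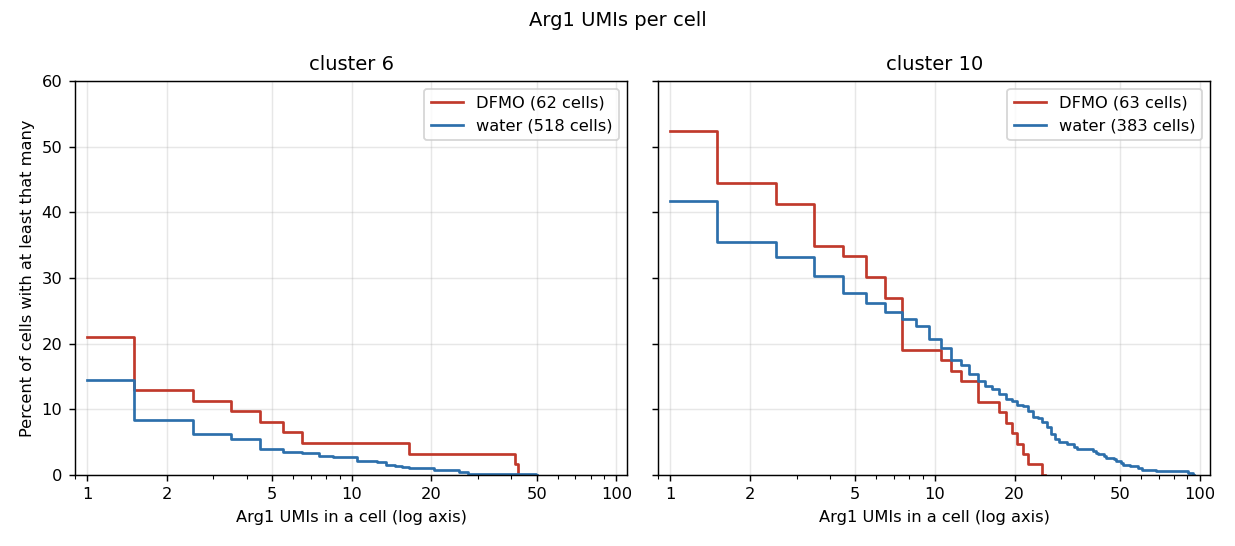
Percent of cells (vertical axis) with at least the number of Arg1 UMIs on the horizontal log axis, for cluster 6 (left) and cluster 10 (right), DFMO in red and water in blue. In cluster 10 the DFMO curve starts higher, at 52.4% against 41.8%, and ends at 25 UMIs against 94 in water.

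Outside monocyte and macrophage-like cells Arg1 was near background, except in unnamed cluster 18. B cell-like cells, which should lack Arg1, had 1 UMI in 1491 DFMO cells and 0 in 57 water cells, at a median depth of 1765 and 1314 UMIs. A count of 0 in 57 cells allows a share of cells with a UMI of up to 5.26%, taking 3 counts as the limit. In the far deeper Ptprc-low cells, with a median of 18297.5 UMIs in DFMO and 16530 in water, Arg1 was seen in 0.868% and 0.551% of cells. These shares are far below the 24.5% of DFMO and 19.4% of water cells in the monocyte and macrophage-like class, whose median depth was 5626 and 4295 UMIs. Single cells made up most of the rest: 17 of 18 Arg1 UMIs in water NK cell-like cells and 20 of 21 in water dendritic cell-like cells were in 1 cell. Cluster 18, which had 3124 CPM of fibroblast and 3679 CPM of monocyte and macrophage markers in DFMO against 5909 and 2707 CPM in water, held 56 Arg1 UMIs in DFMO, 54 of them in 1 cell, and 32 in water. The part of these markers in the result was not tested.

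Arg2 (ENSMUSG00000021125), on chromosome 12, 79130777 to 79156301, plus strand, was sparse, with 23 UMIs in 19 DFMO cells and 85 UMIs in 63 water cells. Vti1b and Gm48780, both on the other strand, overlap it in the annotation. Cluster 6 held 47.2% of its UMIs, at 39.0 CPM in DFMO (21.3 to 65.4), against 19.1 CPM in water (13.5 to 26.4). Cluster 10 held 22.2%, at 13.5 CPM in DFMO (4.40 to 31.6), against 9.12 CPM in water (5.49 to 14.2). Cluster 6 was above cluster 10, where Arg1 had cluster 10 above cluster 6, but the intervals of the pair overlapped in DFMO and in water. Cluster 12 was the lowest of the 3 for Arg2 too, at 5.51 CPM in DFMO (0.668 to 19.9), against 2.57 CPM in water (0.700 to 6.58), with intervals that overlap those of cluster 10. Migratory dendritic cell-like cells held 1 UMI in 34 DFMO cells and 11 UMIs in 75 water cells, 6 of the 11 in 1 cell. Ptprc-low cells held 0 Arg2 UMIs in DFMO and 3 in water, and B cell-like and NK cell-like cells held 0 in both.

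The 2 arginase genes were seldom seen in the same cell of cluster 6. Of 12 DFMO cells with an Arg2 UMI, 1 had an Arg1 UMI, where the product of the shares gives 2.52. Of 27 water cells with an Arg2 UMI, 1 had an Arg1 UMI, where the product gives 3.91. In cluster 10 the counts went the other way, with Arg1 in 3 of 4 DFMO and 12 of 17 water cells that had Arg2, against 2.10 and 7.10 from the shares. The median was 1 Arg2 UMI per positive cell in both libraries, which limits these counts.

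Nos2 (ENSMUSG00000020826) lies on chromosome 11, 78920787 to 78960254, plus strand. Cluster 3 of the Ptprc-low cells held 48.5% of all Nos2 UMIs. This cluster was led by Cdsn, Ero1l, Car9, Car6 and Stbd1, of which Car9 (a carbonic anhydrase) and Ero1l (an oxidase of the endoplasmic reticulum) are known hypoxia-induced genes. Nos2 stood there at 88.1 CPM in 180 DFMO cells (78.9 to 98.2; 328 UMIs), against 64.3 CPM in 591 water cells (59.5 to 69.5; 643 UMIs). Cluster 2, led by the mitotic genes Cenpf, Anln and Prc1 with Troap and Fam83d, stood at 20.5 CPM in DFMO (15.8 to 26.1), against 15.5 CPM in water (13.3 to 17.9). Cluster 5, led by Phlda2, G930009F23Rik, Gm26917, Ccnd1 and Mfsd2a, stood at 15.7 CPM in DFMO (11.2 to 21.5), against 8.74 CPM in water (6.93 to 10.9). Cluster 14, led by Gm12415, Hmga1, Nkain1, Nt5dc2 and Wincr1, held 7 UMIs in DFMO and 6 in water. Cluster 3 was thus the highest of the Ptprc-low clusters in both libraries, with no overlap of its interval with those of the other 3. In DFMO the intervals of clusters 2, 5 and 14 overlapped one another.

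Fibroblast-like cells, led by the matrix genes Mfap4, Clec3b, Aspn, Col1a1 and Bgn, carried 61.8 CPM of Nos2 (50.7 to 74.5; 109 UMIs) in 112 DFMO cells and 32.5 CPM (29.2 to 36.1; 345 UMIs) in 909 water cells. A Nos2 UMI was seen in 41.1% of these cells in DFMO and 18.9% in water, at a median depth of 16231 and 11556 UMIs. In Ptprc-low cells the shares were 25% in DFMO and 17.2% in water. T cell-like cells, with 1 positive cell of 1710 in DFMO and 2 of 1165 in water at median depths of 2126 and 2732 UMIs, give the background. The 13 monocyte and macrophage genes summed to 38.5 CPM in DFMO against 34.8 CPM in water over Ptprc-low cells, and to 31332 and 37002 CPM in cluster 10. Ptprc-low cells also stood at 3059 CPM of the 8 fibroblast markers in DFMO and 2779 CPM in water, and at 0.504 and 0.835 CPM of the 5 epithelial markers. Y-linked genes summed to 1.31 CPM in DFMO against 0.526 CPM in water over Ptprc-low cells, and to 198 and 106 CPM in the named leukocytes. The part of these markers in the Nos2 values was not tested.

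Among leukocytes Nos2 was confined to a few macrophage-like cells, apart from 7 UMIs in 3 T cell-like cells. Cluster 10 held 131 of the 134 Nos2 UMIs of the monocyte and macrophage-like class. There Nos2 stood at 100.2 CPM in DFMO (70.6 to 138; 37 UMIs), against 45.1 CPM in water (36.5 to 55.2; 94 UMIs), with a UMI in 14.3% of DFMO cells and 14.9% of water cells. The share of positive cells was nearly the same and the number per positive cell was not: 1 DFMO cell held 15 of the 37 UMIs. Subcluster 17 held all 37 of the DFMO UMIs of the class and 90 of the 97 water UMIs. Cluster 6 held 0 Nos2 UMIs in 62 DFMO cells, which by the same limit allows a share of cells with a UMI of up to 4.84%, and 3 UMIs in 518 water cells. Dendritic cell-like, migratory dendritic cell-like, NK cell-like and B cell-like cells held 0 in both libraries.

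Most macrophage-like cells with Nos2 also had Arg1, while most of those with Arg1 had no Nos2 UMI. In the monocyte and macrophage-like class 8 of 9 DFMO cells with a Nos2 UMI also had an Arg1 UMI (88.9%, 51.8 to 99.7), against 21.2% of the DFMO cells without Nos2. In water 44 of 60 had both (73.3%, 60.3 to 83.9), against 16.6% of the cells without Nos2. The product of the shares gives 2.20 cells with both in DFMO and 11.6 in water. All 52 cells with both genes were in cluster 10, where the product gives 4.71 in DFMO and 23.8 in water. Of the Arg1-positive cells of the class, 17.4% in DFMO and 18.6% in water had a Nos2 UMI. Of those in cluster 10, 24.2% in DFMO and 27.5% in water had one.

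Since deep cells show more genes, the counts were repeated within ranges of depth. Cells with both genes had a median of 7361.5 UMIs in DFMO and 6860 in water, against 5194 and 4803 over cluster 10. In water cells of cluster 10 with 3000 to under 6000 UMIs, 17 of 21 Nos2-positive cells had Arg1, against 39.3% of the rest. At 6000 UMIs or more this was 24 of 27, against 45.0% of the rest, and under 3000 UMIs it was 3 of 9, against 21.9%. In DFMO the counts were 1 of 1 under 3000 UMIs, 2 of 3 from 3000 to under 6000 and 5 of 5 at 6000 or more. After every cell was thinned to 1000 UMIs, 3 of 5 Nos2-positive DFMO cells of cluster 10 had Arg1, against 32.7% of the rest, and 14 of 20 water cells did, against 27.8%. When at least 2 UMIs of each gene were asked for, 8 of 8 DFMO cells and 19 of 21 water cells had both.

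**Figure D3:**
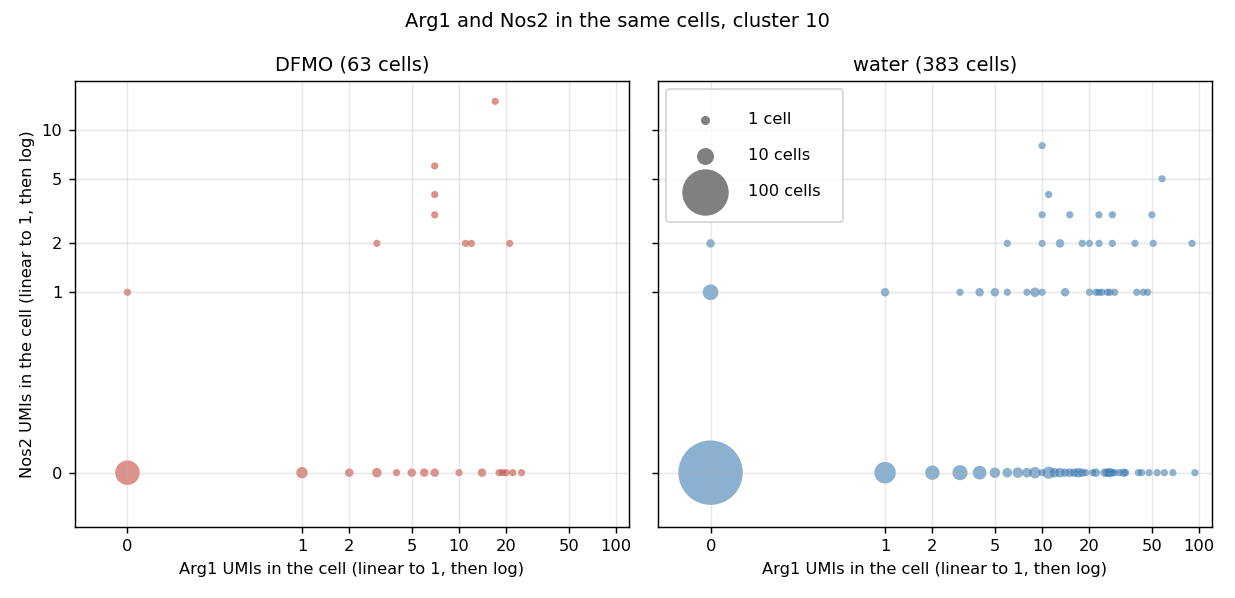
Arg1 UMIs (horizontal) and Nos2 UMIs (vertical) of each cell of cluster 10, DFMO left and water right, on axes linear to 1 and logarithmic above, with the area of a point growing with the number of cells at that pair of counts. Of the Nos2-positive cells, 8 of 9 in DFMO and 44 of 57 in water lie to the right of 0 Arg1 UMIs.

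Within cluster 10 Arg1 was higher on average in the cells with Nos2, although the single cells of the cluster richest in Arg1 (25 UMIs in DFMO, 94 in water) had 0 Nos2 UMIs. Arg1 stood at 1359 CPM in Nos2-positive and 652 CPM in Nos2-negative cells of cluster 10 in DFMO. In water it stood at 2479 CPM in Nos2-positive and 834 CPM in Nos2-negative cells. Cells with both genes held a median of 9 Arg1 UMIs in DFMO and 14.5 in water, and cells with Arg1 alone held 5 and 7. Within subcluster 17 the counts lay nearer to the product of the shares: cells with both genes numbered 8 in DFMO against 6.27 from the shares, and 43 in water against 40.4. Fibroblast markers, whose cells also carry Nos2, were at 0 UMIs for all 8 genes in the 8 DFMO cells with both. In the 44 water cells with both, 6 of the 8 genes were at 0, and Dcn gave 50 of 52 UMIs. Median doublet scores were 0.0741 for the cells with both and 0.0741 over cluster 10 in DFMO, and 0.0301 and 0.0291 in water. In Ptprc-low cells the 2 genes seldom shared a cell: Arg1 was seen in 1 of 144 Nos2-positive cells in DFMO and in 4 of 344 in water (1.25 and 1.90 cells from the shares), and in fibroblast-like cells in 1 of 46 and 0 of 172. In cluster 18 Arg1 was seen in 2 of 5 Nos2-positive DFMO cells (0.682 from the shares), which held 55 of its 56 DFMO Arg1 UMIs, and in 1 of 27 in water (1.55 from the shares). In T cell-like cells it was seen in 0 of 1 in DFMO and 1 of 2 in water.

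Genes that marked the Arg1-positive cells were looked for within the monocyte and macrophage-like class after thinning, and ranked in water. The highest ratios of positive over negative cells belonged to Mmp12 (log2 5.08 in DFMO, 5.16 in water), the secreted phosphoprotein gene Spp1 (1.79 in DFMO, 4.57 in water) and Gpnmb (2.35 in DFMO, 3.57 in water). Hilpda, a hypoxia-induced lipid droplet gene, stood at 2.35 in DFMO and 3.48 in water. Vegfa, the angiogenic growth factor, stood at 3.28 in DFMO and 3.16 in water. Pf4, Adam8, Mt2, Egln3 (an oxygen-sensing hydroxylase) and Clec4d followed, between 1.39 and 3.20 in DFMO and between 2.89 and 3.41 in water. All 10 genes were higher in Arg1-positive cells in DFMO too, and for each the interval there lay above 0. At the low end were the neutrophil and monocyte alarmin genes S100a9 and S100a8, with 0 and 1 UMIs in 45 Arg1-positive DFMO cells against 73 and 84 in 138 negative ones, and 0 and 1 in 233 Arg1-positive water cells against 190 and 186 in 963 negative ones. Cd177, Serpinb2 and Hpgd had 0, 0 and 1 UMIs in the Arg1-positive DFMO cells and 0 each in the water ones. The DFMO intervals of Cd177 (up to 0.29) and Hpgd (-7.14 to 1.11) included 0. Of the Arg1-positive cells of the class, 33 of 46 in DFMO and 160 of 237 in water were in cluster 10, so these genes also tell that cluster from the others. Within cluster 10 alone, a step added after these values were seen, the DFMO intervals of Spp1 (-0.19), Clec4d (0.17), Adam8 (0.35) and Hilpda (0.71) included 0, and the ratios in water were 3.26, 2.39, 2.82 and 2.11. Mmp12 stood there at 3.27 in DFMO and 3.87 in water.

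Nos2-positive cells of the class shared Mmp12, Gpnmb, Hilpda, Pf4, Mt2, Vegfa and Clec4d with that list of 10, and Arg1 itself was among their 10 highest genes (2.37 in DFMO, 2.84 in water). Fabp4, a fatty acid carrier, ranked first in water at 4.03 (3.20 to 4.85). It had 0 UMIs in the 9 DFMO Nos2-positive cells, too few to compare, with an interval up to 3.50. Hspb1 had 0 UMIs in DFMO cells of the class and stood at 2.83 in water. The lowest genes were Nr4a1, Hp, Orai1, S100a9 and S100a8, each with 0 or 1 UMI in Nos2-positive cells of both libraries. In DFMO, with 9 such cells, the intervals of Orai1 (up to 1.29) and S100a9 (up to 0.003) included 0. Restricting the cells to cluster 10 likewise changed the leading genes for Nos2. Cxcl2, a neutrophil chemokine (1.38 in DFMO, 2.29 in water), Clec4e, a receptor for microbial glycolipid (2.95 in DFMO, 2.18 in water), and Acod1, which makes itaconate (2.82 in DFMO, 2.16 in water), then led. Tmem176b was lowest, with 0 UMIs in Nos2-positive DFMO cells against 35 in negative ones, and 3 against 205 in water (-3.61). Subcluster 17 held all 9 DFMO and 53 of the 60 water Nos2-positive cells of the class. The contrast within cluster 10 therefore also sets that subcluster against the rest of the cluster.

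Across the whole series the 3 genes followed different genes. Over 42 sums, 1 per cluster and library, the genes whose log2(CPM + 1) was closest to that of Arg1 were C3ar1 (Pearson r 0.95), a complement receptor gene, 4930430E12Rik and Acod1 (both 0.91), and C1qc and C1qb (both 0.90). Those closest to Arg2 were Gm34084 (0.87), F11r (0.84), Il27, Scarf1 and Il1rn (0.83 each). Those closest to Nos2 were Pmp22 (0.94), Pdgfc, Flrt2 and Rassf8 (0.92 each) and Lhfpl2 (0.91). Among the 3 themselves r was 0.58 for Arg1 with Arg2, 0.32 for Arg1 with Nos2 and 0.02 for Arg2 with Nos2. The sums of 1 library share its depth, and the best of 12521 genes are named, so these r are a description. Arg1 and Nos2 were thus far apart across clusters. Within cluster 10 most Nos2-positive cells also had Arg1, while most Arg1-positive cells had no Nos2 UMI.

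Summed over every kept cell, the Arg1 level in DFMO was below that in water, at 20.4 CPM (18.6 to 22.3; 477 UMIs in 61 cells) against 49.0 CPM (47.2 to 50.8; 2858 UMIs in 271 cells) in water. The log2 ratio of DFMO over water was -1.26 (-1.41 to -1.12). Arg1 was the only one of the 3 genes past 2-fold, and of 14122 genes with at least 30 UMIs 3.72% were at least 2-fold lower and 10.1% at least 2-fold higher. Arg2 stood at 0.984 CPM in DFMO against 1.46 CPM in water (log2 ratio -0.57, -1.30 to 0.11), and Nos2 at 25.4 CPM in DFMO against 24.2 CPM in water (0.07, -0.07 to 0.21). These ratios combine the make-up of the libraries, in which monocyte and macrophage-like cells were 4.25% of DFMO and 19.9% of water cells, with the level per cell. They also weight deep cells most: with each cell thinned to 1000 UMIs the ratio was -2.19 for Arg1, -1.52 for Arg2 and -1.14 for Nos2.

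Within the monocyte and macrophage-like class the gap in Arg1 was much smaller. Arg1 stood at 375 CPM in DFMO (339 to 413), against 493 CPM in water (474 to 511), a log2 ratio of -0.39 (-0.55 to -0.24). None of the 3 genes was past 2-fold in the class, where 3.28% of 8872 genes were at least 2-fold lower and 1.32% at least 2-fold higher. The clusters went in opposite directions. In cluster 10 the ratio was -0.55 (-0.73 to -0.37), and in cluster 6 it was 0.76 (0.45 to 1.05). In subcluster 17 it was -1.0 (-1.20 to -0.80), and without these 33 DFMO and 168 water cells the class turned to 0.51 (0.26 to 0.75), with 205 CPM in DFMO (176 to 237), against 144 CPM in water (134 to 156). Other cell markers also differed: neutrophil genes summed to 1022 CPM in DFMO against 496 CPM in water in cluster 6, and fibroblast genes to 2.71 CPM in DFMO against 237 CPM in water in cluster 10, and their part in the result was not tested. The direction for the class therefore depended on whether the cells of subcluster 17 were counted in it. It also rested on few cells: of the 182 DFMO UMIs left without subcluster 17, 1 cell of cluster 6 held 42 and another held 41.

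A few cells also set the size of the Arg1 ratios. In cluster 6, 1 DFMO cell held 42 (33.9%) and another held 41 of the 124 DFMO UMIs. Without the richest cell of each library the ratio was 0.38, which still counts the cell with 41 UMIs. The ratio without both cells was not computed. After thinning, Arg1 in cluster 6 was 213 CPM in DFMO (113 to 364), against 200.4 CPM in water (163 to 244). Thinned cluster 10 stood at 967 CPM in DFMO (734 to 1250), against 1000 CPM in water (901 to 1106), a log2 ratio of -0.049. After thinning, the Arg1 intervals of DFMO and water thus overlapped within these clusters, while those of the summed UMIs did not. Thinning left only 13 DFMO Arg1 UMIs in cluster 6 and 58 in cluster 10, which widens the intervals. With each cell given equal weight, as the mean over cells, the log2 ratio was 0.26 in cluster 6 and -0.22 in cluster 10. The share of Arg1-positive cells in the class after thinning was 14.2% (9.50 to 20.1) in DFMO and 13.0% in water.

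**Figure D4:**
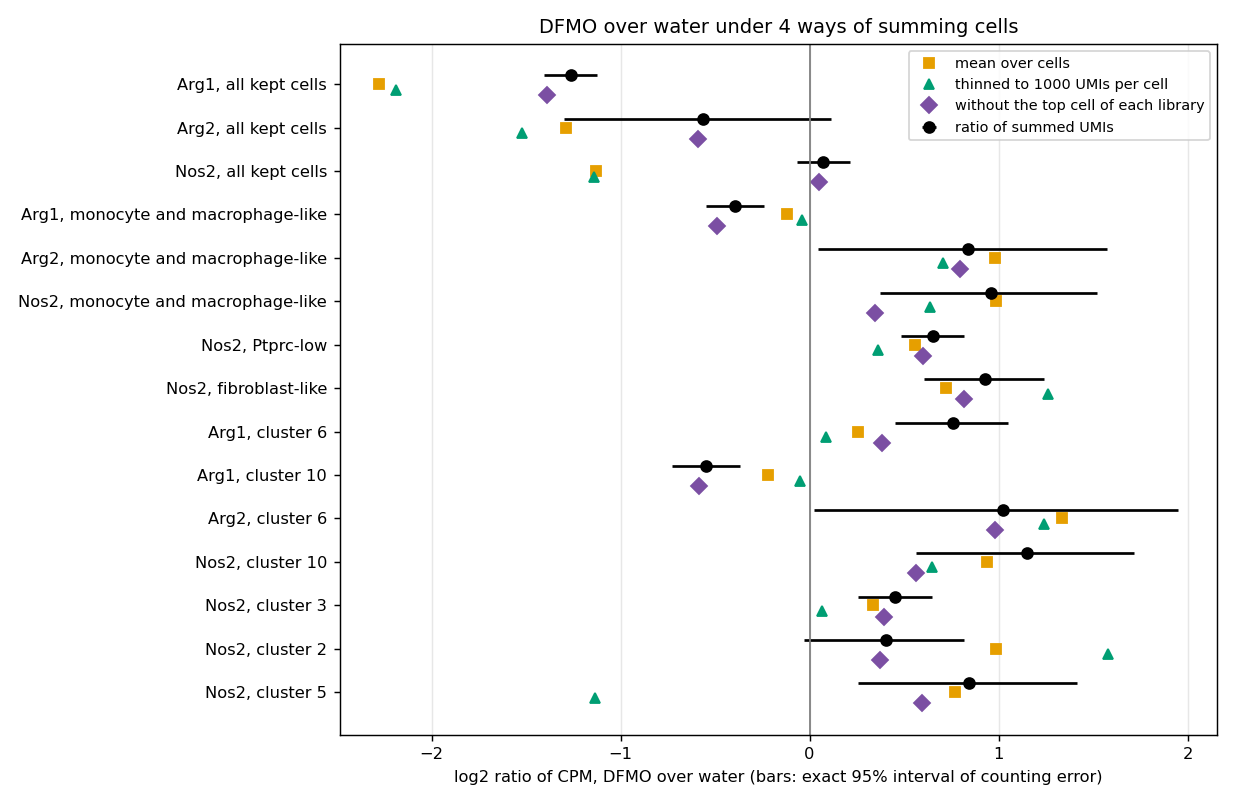
Log2 ratio of DFMO over water CPM (horizontal axis) for each gene and set of cells, as the ratio of summed UMIs with its exact 95% interval (black) and under 3 other ways of combining cells (coloured). Arg1 in clusters 6 and 10 lies on opposite sides of 0 and both move to within 0.089 of 0 after thinning, and Nos2 within single classes and clusters lies above 0 in all 4, except in cluster 5, where it is -1.14 after thinning.

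Arg2 was higher in DFMO within the class, at 19.2 CPM (11.9 to 29.4; 21 UMIs) against 10.8 CPM (8.22 to 13.9; 60 UMIs) in water, a log2 ratio of 0.84 (0.05 to 1.58). An Arg2 UMI was seen in 9.04% of DFMO cells (5.36 to 14.1) and 3.93% of water cells (2.91 to 5.18). In cluster 6 the ratio was 1.03 (0.02 to 1.95), just past 2-fold, where 2.63% of 6226 genes were at least 2-fold higher and 4.85% at least 2-fold lower. There 19.4% of DFMO and 5.21% of water cells had a UMI, at median depths of 5931.5 and 3469.5 UMIs. After thinning only 3 DFMO and 12 water UMIs of Arg2 were left in the class, too few to compare.

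Nos2 was higher in DFMO in the 3 classes that held most of it, and lower in unnamed cluster 18 (17.5 CPM in DFMO, 32.1 CPM in water; 8 and 44 UMIs). In Ptprc-low cells it stood at 44.2 CPM in DFMO (40.2 to 48.6), against 28.2 CPM in water (26.4 to 30.1), a log2 ratio of 0.65 (0.48 to 0.82), below 2-fold, where 1.33% of 11699 genes were at least 2-fold higher and 1.02% at least 2-fold lower. In fibroblast-like cells the ratio was 0.93 (0.60 to 1.24), also below 2-fold, where 1.11% of 10644 genes were at least 2-fold higher and 3.55% at least 2-fold lower. Epithelial markers summed to 0.567 CPM in DFMO and 65.4 CPM in water over fibroblast-like cells. In the finer clustering fibroblast-like subcluster 20, led by Mfap4, Ccl11, Postn, Bgn and Enpp2, held 8 DFMO and 169 water cells. Fibroblast-like subclusters 5 and 14 held 71 and 50 DFMO cells, against 588 and 226 water cells. The part of these differences in the result was not tested. In the monocyte and macrophage-like class Nos2 stood at 33.9 CPM in DFMO (23.9 to 46.7), against 17.4 CPM in water (14.1 to 21.2), with a ratio of 0.96 (0.37 to 1.52). In cluster 10 it was 1.15 (0.56 to 1.71), past 2-fold, where 2.43% of 6540 genes were at least 2-fold higher and 5.84% at least 2-fold lower. Without the richest cell of each library the ratio was 0.35 in the class and 0.57 in cluster 10.

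By cluster of Ptprc-low cells, the Nos2 ratio was 0.45 (0.26 to 0.65) in cluster 3, 0.84 (0.25 to 1.41) in cluster 5 and 0.40 (-0.03 to 0.82) in cluster 2. The direction of the summed UMIs was the same in all 3, and in cluster 2 the interval includes 0. In cluster 5 it turned round after thinning, to 7.04 CPM in DFMO (0.178 to 39.2; 1 UMI), against 15.5 CPM in water (6.68 to 30.5; 8 UMIs). Thinned cluster 2 stood at 52.0 CPM in DFMO (23.8 to 98.8; 9 UMIs), against 17.4 CPM in water (8.70 to 31.2; 11 UMIs). After thinning, cluster 3 stood at 94.4 CPM in DFMO (55.0 to 151), against 90.1 CPM in water (67.5 to 118), and the whole of the Ptprc-low cells at 49.5 CPM (32.9 to 71.5) and 38.4 CPM (30.3 to 48.1). Thinned fibroblast-like cells stood at 71.4 CPM in DFMO (30.8 to 141), against 29.8 CPM in water (19.6 to 43.3), from 8 and 27 UMIs. Thinned shares of Nos2-positive cells were 4.59% in DFMO and 3.29% in water for Ptprc-low cells, and 6.25% and 2.65% for fibroblast-like cells.

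The other genes of arginine use were read from 5 lists. In monocyte and macrophage-like cells 7 of 13 measured genes of the arginine and urea cycle list were higher in DFMO and 6 lower, with a median log2 ratio of 0.01 against 0.04 over all 8872 genes. Those with intervals clear of 0 were Slc7a2 (1.05), an arginine transporter, Odc1 (0.55), the target of DFMO, and Glud1 (0.36), glutamate dehydrogenase. In Ptprc-low cells 12 of 15 were higher (66.7% with TMM library sizes), with a median of 0.17 against 0.05 over all genes, of which 58.4% were higher. Ass1, which returns citrulline towards arginine, stood there at 1.16 (20.9 CPM in DFMO, 9.31 CPM in water), Slc25a15, the mitochondrial ornithine carrier, at 0.50, and Slc7a1, another arginine transporter, at 0.42. Slc7a6 (0.25) and the creatine synthesis gene Gamt (-0.31) were the others named by rule. In fibroblast-like cells 13 of 15 were higher, with a median of 0.31 against a value near 0 over all genes, of which 49.7% were higher. As summed UMIs, Nos2, Slc7a1 and Ass1 were thus higher in DFMO in Ptprc-low cells, while Gamt was lower. The Nos2 intervals of the 2 libraries overlapped there after thinning.

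Most measured genes of the nitric oxide synthesis and cofactor list were lower in DFMO in 2 classes where Nos2 was higher. The list holds regulators as well as enzymes, so its direction was not read as one of synthesis or supply. In Ptprc-low cells 3 of 13 were higher and 10 lower, with a median of -0.07, where 58.4% of all genes were higher. In the monocyte and macrophage-like class 3 of 10 were higher and 7 lower, with a median of -0.25, where 54.4% of all genes were higher. With each cell given equal weight 50% of the list was higher in that class. Its clusters differed: in cluster 6, 5 were higher and 4 lower, with a median of 0.08. In cluster 10, 2 were higher and 8 lower, with a median of -0.17. In Ptprc-low cells Gchfr, a regulator of cofactor synthesis, stood at -0.40, Qdpr, which recycles the cofactor, at -0.30, Spr at -0.18, Ddah2 at -0.12 and Pts at 0.18. In monocyte and macrophage-like cells Nosip, whose product binds nitric oxide synthase, stood at -0.43 and Calm3 at -0.25.

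Both activation lists held members on each side. Of the classical list, 11 of 14 were higher in the monocyte and macrophage-like class, with a median of 0.13, beside 54.4% of all genes. Acod1 (0.60), the interferon-induced chemokine gene Cxcl9 (0.37) and the receptor gene Ifngr1 (0.24) were above 0, and Cxcl10 (-0.32) and Tnf (-0.25) below. With each cell given equal weight 42.9% of this list was higher instead of 78.6%. In Ptprc-low cells 10 of 12 were higher, beside 58.4% of all genes: Cxcl9 stood at 1.32, Cxcl10 at 0.42 and Irf1 at 0.36, while Il1b, with 5 DFMO and 53 water UMIs, stood at -1.70. Of the alternative list, 6 of 11 (54.5%) were higher in the monocyte and macrophage-like class, beside 54.4% of all genes. Among them were Pparg (1.13), Klf4 (0.71) and the chitinase-like gene Chil3 (0.64), while Il4ra (-0.42) and Trem2 (-0.34) were below 0. In Ptprc-low cells 4 of the 5 measured members of the alternative list were higher, beside 58.4% of all genes. Klf4 (0.45), Stat6 (0.20) and Stat3 (0.18) were among them, and Cebpb stood at -0.07.

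The hypoxia and glycolysis list moved most evenly in macrophage-like cells. All 11 measured members were higher in DFMO in the monocyte and macrophage-like class, with a median of 0.21, where 54.4% of all genes were higher, and all 11 were higher in cluster 10 alone, with a median of 0.38 against -0.04 over all genes. In the class Vegfa stood at 0.81 (129 CPM in DFMO, 73.9 CPM in water), the glycolytic gene Pfkp and Egln3 at 0.53 each, Ndrg1 at 0.47 and Hif1a at 0.27. Hilpda, Vegfa and Egln3 were also higher in Arg1-positive cells, and the Arg1-rich subcluster 17 held 33 of 63 DFMO and 165 of 383 water cells of cluster 10. The part of this make-up in the list's values was not tested. In Ptprc-low cells the list was split, 6 higher and 5 lower, with Vegfa (0.42), Egln3 (0.41) and Pfkp (0.35) above and Hilpda and Adm (-0.27 each) below. Of the members measured in the 5 lists, 1 of the arginine list (Slc7a2) and 1 of the alternative list (Pparg) were at least 2-fold higher in the monocyte and macrophage-like class, where 1.32% of all genes were. Retnla, an alternative activation gene named after its values were seen, was at least 2-fold lower there, with 0 UMIs in DFMO and 75 in water (13.5 CPM), where 3.28% of all genes were.

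**Figure D5:**
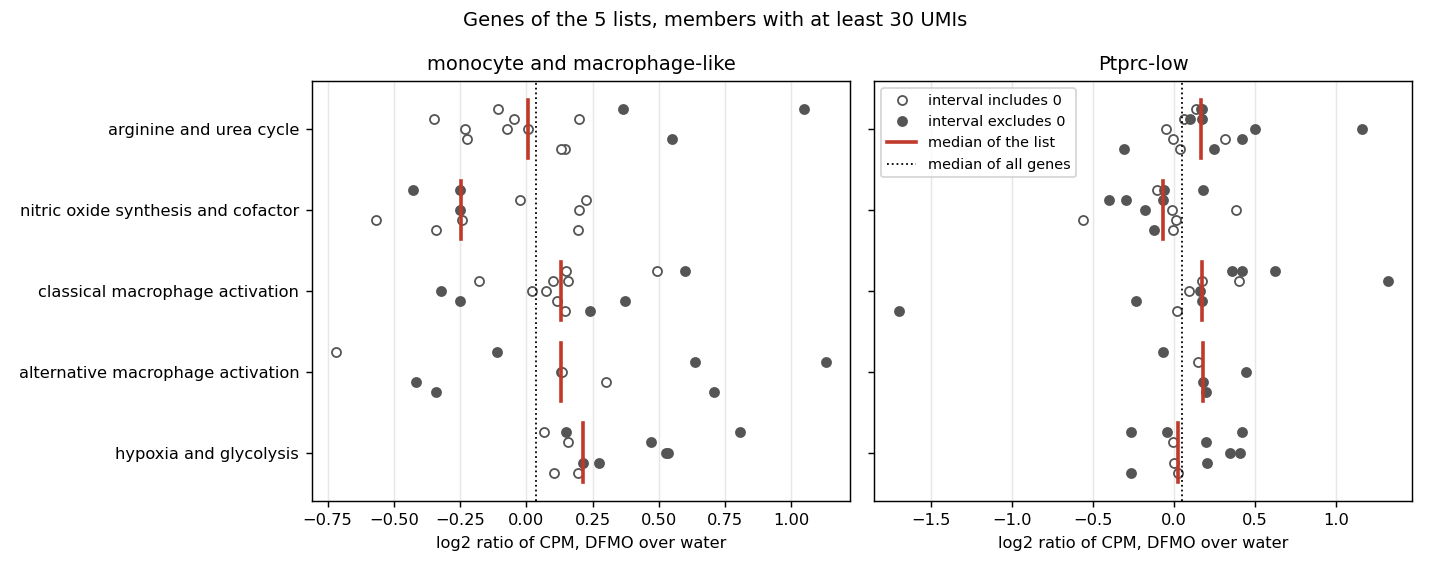
Log2 ratio of DFMO over water CPM (horizontal axis) for each member with at least 30 UMIs of the 5 gene lists, in monocyte and macrophage-like cells (left) and Ptprc-low cells (right), with filled points where the 95% counting interval excludes 0, a red bar at the list's median and a dotted line at the median of all genes. All 11 hypoxia and glycolysis genes lie above 0 on the left, and 12 of 15 arginine and urea cycle genes lie above 0 on the right.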

How the data were processed

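The deposited matrix holds raw UMI counts of 10720 cells and 17775 genes, and a second deposited table lists the group, UMI count and gene number of every cell. It calls the groups DFMO and Control, and Control was read as water. Per the submitters' processing notes, Cell Ranger 3.02 and Scanpy 1.4.4 were used with mm10. For all 4472 DFMO and 6248 water cells the matrix adds up to the UMI count listed. The deposited table of genes holds count totals and a signal column, the mean count per gene, over more cells than the matrix has, and was not used for values. The deposited libraries held 23588037 (DFMO) and 59748244 (water) UMIs.

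Cells with at least 200 genes were kept (1 water cell removed). Scrublet, in scanpy 1.11.5, removed 51 DFMO (1.14%) and 97 water (1.55%) cells as doublets. After scaling to 10000 per cell, 2000 variable genes without Arg1, Arg2, Nos2 and the antigen receptor genes, 30 principal components, 15 neighbours and Leiden clustering (leidenalg 0.10.2, seed 0) at resolution 1 gave 23 clusters, and resolution 2 gave 31. A class needed at least 3 of its markers and at least 50% of them, each at 2 times the level elsewhere and in 0.1 of cells. Ptprc-low clusters met no such rule and had less than 20 CPM of Ptprc. These names were rebuilt here.

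UMIs were summed per library and set of cells, with exact Poisson (CPM), conditional binomial (log2 ratio) and Clopper-Pearson (share) 95% intervals, tested on simulated counts. A share or level of 0 allows up to 3 counts of the total. Genes needed 30 UMIs in both libraries together to enter a ratio. To compare cells of unlike depth each was thinned to 1000 UMIs, which left out 102 DFMO and 133 water cells, 5 and 25 of them monocyte and macrophage-like. Named genes were the 3 members; of each list the 5 furthest from 0 with an interval clear of 0; the 5 genes closest to each member by Pearson r among genes with at least 100 UMIs; the 10 highest and 5 lowest genes of positive over negative cells, among genes with at least 50 UMIs in water; and the 5 leading genes of a described cluster. Some genes that this rule names are not reported here. The members and lists were chosen with earlier results of these data known. Coordinates are from GENCODE M21 on mm10. Of the 31-base words in the transcripts of each member, 0 occur in transcripts of other genes. Software was Python 3.11.15, igraph 0.11.9, scipy 1.17.1, numpy 2.4.6, matplotlib 3.10.9, scikit-learn 1.9.0, pandas 2.3.3 and edgeR 4.0.16 in R 4.3.3; edgeR served for TMM library sizes only.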

Additional observations from a re-analysis of the deposited data

Results flagged for a closer look

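Arg1 differed in direction between 2 clusters of the monocyte and macrophage-like class. The log2 ratio of DFMO over water was 0.76 (0.45 to 1.05) in cluster 6, with 345 CPM in DFMO against 204 CPM in water. It was -0.55 (-0.73 to -0.37) in cluster 10, with 772 CPM in DFMO against 1127 CPM in water. The difference between the clusters was not tested, since each group is 1 library. Of the 124 DFMO UMIs in cluster 6, 1 cell held 42 and another held 41. After thinning to 1000 UMIs per cell the ratios were 0.089 in cluster 6 and -0.049 in cluster 10.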

How the results depend on the processing

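No paired analysis was possible because a single library stood for either group. The alternatives gave 215 values for 44 results, of which 177 stayed close to the reported value (within its counting interval, or for a list within 1.5 times), 36 moved further and 2 turned round. Arg1 in the monocyte and macrophage-like class turned to 0.51 without subcluster 17, an alternative chosen after seeing the data. Nos2 in cluster 5, added later too, turned from 0.84 to -1.14 after thinning, which left 1 UMI in DFMO and 8 in water. TMM library sizes shifted all log2 ratios by 0.05 over all cells and by 0.12 in cluster 6.

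Mean over cells moved the log2 ratio of Arg1 to -2.28 and of Nos2 to -1.13 over all kept cells. It moved Arg1 to -0.12 in the monocyte and macrophage-like class, to 0.26 in cluster 6 and to -0.22 in cluster 10. It moved the shares of lists higher in that class to 42.9% for the classical list and 50% for the nitric oxide list. Over all kept cells it moved them to 31.25% for the classical, 23.1% for the alternative and 9.09% for the hypoxia list, against 56.3%, 38.5% and 18.2% as summed. Thinning to 1000 UMIs moved the ratios over all kept cells to -2.19 for Arg1, -1.52 for Arg2 and -1.14 for Nos2. It moved Arg1 to -0.040 in the class, 0.089 in cluster 6 and -0.049 in cluster 10, and Nos2 to 0.36 in Ptprc-low cells, 0.067 in cluster 3, 1.58 in cluster 2 (0.98 as the mean over cells) and 1.26 in fibroblast-like cells. Without the richest cell of each library, added after seeing the data, Nos2 in the class was 0.35 and Arg1 in cluster 6 was 0.38. The causes of these shifts were not tested.

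Shares of positive cells fell under thinning to 14.2% in DFMO and 13.0% in water for Arg1 in the class, to 4.59% and 3.29% for Nos2 in Ptprc-low cells, and to 6.25% and 2.65% for Nos2 in fibroblast-like cells. When at least 2 UMIs were asked for, they were 14.7% in water for Arg1, 13.5% in DFMO and 10.1% in water for Nos2 in Ptprc-low cells, and 19.6% in DFMO and 8.69% in water in fibroblast-like cells. The share of Nos2-positive cells of the class with Arg1 was then 100% in DFMO and 90.5% in water. Fewer UMIs per cell, or a stricter count, lower a share by construction. None of the values obtained with doublets retained, a minimum of 500 genes, clustering at resolution 0.5 or 2.0, the 3 genes allowed among the variable genes, TMM library sizes, or lists at 10 or 100 UMIs was among those that moved or turned. With TMM library sizes 66.7% of the arginine list was higher in Ptprc-low cells and 41.2% over all kept cells.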

Other observations

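The doublets and the 1 cell of low gene number that were removed held 47 Arg1, 5 Arg2 and 29 Nos2 UMIs, all in water. In endothelium-like cells Nos2 had 0 UMIs in 5 DFMO cells and 8 UMIs in 2 of 16 water cells, 6 of them in 1 cell. Gamt, a creatine synthesis gene, had 2 UMIs in cluster 10 of DFMO and 71 in that of water, a log2 ratio of -2.65. Cxcl9 was lower in Arg1-positive cells of cluster 10 in both libraries, at -1.74 (-2.77 to -0.80) in DFMO and -2.84 in water.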
